A study of Mus musculus with 3 samples.

Results

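Perineurial cells form the thin multilayered sheath around each fascicle of a peripheral nerve. They are held together by tight, adherens and gap junctions and coated by basement membrane, and with the endoneurial vessels they make the blood-nerve barrier, so that glucose and lactate have to cross them through transporters. In development, hedgehog ligand from Schwann cells acts on the mesenchyme that forms this sheath.

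The cells described here are those that the authors' deposited metadata place in the class MES_PERI. Cells were matched to the count matrices by barcode, which found 2426 perineurial cells among 7234 annotated cells. There were 116 of 1343 annotated cells in intact nerve, 241 of 1780 in the bridge at day 7 after injury and 2069 of 4111 in the bridge at day 21. 1 further day 21 perineurial cell in the metadata had no matching barcode. The 3 libraries, 1 for each group, came from mice carrying the tamoxifen-inducible Pdgfrb-cre/ERT2 driver and the R26-TomatoLSL reporter, so every group shares both alleles, and TdTomato is on only in cells in which Pdgfrb drove the recombinase, and in their progeny. Each library was made from pooled sciatic nerves, broken up by enzymes (collagenase with hyaluronidase) and sorted for TdTomato; the number and age of the animals are not given in the sources used here. Beads that remove myelin were used for the intact sample alone, so this step and the condition cannot be told apart. The bridge is the new tissue that grows between the ends of an injured nerve. The other annotated classes are endoneurial (MES_ENDO), epineurial (MES_EPI), MES_DIFF, MES_EPI-diff and MES_DIV. The labels do not spell out the last 3 names, which are used as deposited.

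With 1 library in each group, none of the comparisons below has a replicate, and single-cell classes of this kind are assigned from the expression of the same cells, so no p-value is given for perineurial against other cells. Levels are unique molecular identifiers (UMIs) summed over the cells of a class, divided by all UMIs of that class and scaled to the usual CPM unit. Intervals are exact 95% intervals that cover counting error only. The perineurial cells held 725278 UMIs in intact nerve, 3751538 at day 7 and 13375190 at day 21, with medians of 5291, 15443 and 5829 UMIs per cell. Their median mitochondrial share was 4.51% in intact nerve, against 1.37% in endoneurial and 1.31% in epineurial cells of that library; it was 1.16% at day 7 and 2.85% at day 21. The part of this difference in the results below was not tested. Between 41 and 58 barcodes were shared by each pair of libraries, none of them perineurial in both.

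To show what lies upstream of the genes that set these cells apart, stretches of 120 bases ending 34, 2 and 0 bases short of the RefSeq start are printed for the glucose transporter Slc2a1, the tight junction claudin Cldn1 and the secreted Wnt antagonist Sfrp5, which RefSeq promoter entries cover (build GRCm38.p6). Each is written 5′ to 3′ on the gene's own strand, with capitals marking the letters GGGCGG or their reverse complement, the GC box.
Slc2a1, chr4:119108591-119108710, plus strand: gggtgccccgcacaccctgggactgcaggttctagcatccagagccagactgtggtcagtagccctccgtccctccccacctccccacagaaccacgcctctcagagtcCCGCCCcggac
Cldn1, chr16:26371842-26371961, minus strand: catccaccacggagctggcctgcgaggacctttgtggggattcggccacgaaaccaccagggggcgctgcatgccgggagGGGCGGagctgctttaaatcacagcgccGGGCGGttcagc
Sfrp5, chr19:42202253-42202372, minus strand: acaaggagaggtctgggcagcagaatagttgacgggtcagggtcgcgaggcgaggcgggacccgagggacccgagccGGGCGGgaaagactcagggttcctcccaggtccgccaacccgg
The Slc2a1 stretch held 1 GC box, the Cldn1 stretch 2 and the Sfrp5 stretch 1. Such a match describes letters and is no evidence of a bound factor.

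The class was first described by 6 perineurial markers. A class of this kind is named from such genes, so their high level was built in and is no test of the label. In intact nerve Slc2a1 was at 818 CPM in perineurial cells and 9.81 CPM in all other annotated cells, 83.3 times higher (65.5 to 108). Itgb4, the integrin chain of hemidesmosomes, was at 1513 CPM against 1.44 CPM, and Cldn1 at 878 CPM against 15.0 CPM. The keratin gene Krt19 was at 294 CPM against 4.19 CPM, Lypd2, a member of the Ly6 family, at 1372 CPM against 3.66 CPM, and Msln, which encodes mesothelin, at 393 CPM against 0.392 CPM. The smallest of these 6 ratios was 58.4, for Cldn1. On mm10, Slc2a1 lies at chr4:119108711-119137983 on the plus strand, Itgb4 at chr11:115974709-116008412 on the plus strand, Krt19 at chr11:100140810-100148665 on the minus strand and Lypd2 at chr15:74732247-74734329 on the minus strand, and all 4 are protein-coding genes.

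At day 7 the same markers were again higher in the class, at lower levels than in intact nerve. Slc2a1 stood at 109 CPM in perineurial and 11.7 CPM in other cells, Itgb4 at 102 CPM against 5.83 CPM, and Krt19 at 83.7 CPM against 5.95 CPM. Lypd2 was at 94.1 CPM against 5.37 CPM and Msln at 53.6 CPM against 1.79 CPM, while Cldn1, at 282 CPM against 86.9 CPM, was 3.24 times higher (3.02 to 3.48). At day 21, 5 of the 6 lay above their day 7 level in the class and Msln did not. Slc2a1 was at 337 CPM, Itgb4 at 422 CPM, Krt19 at 429 CPM, Lypd2 at 320 CPM and Cldn1 at 1090 CPM, against 26.9, 34.8, 22.9, 21.1 and 245 CPM in the other cells of that library. Msln was at 23.8 CPM against 0.936 CPM. The median log2 ratio over the 6 markers was 7.45 in intact nerve, 3.97 at day 7 and 3.79 at day 21.

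Class by class, each marker was highest in perineurial cells in each library, but the margin for Cldn1 was narrow in the bridge: MES_DIFF cells held 178 CPM of Cldn1 at day 7 and 713 CPM at day 21. The lowest Cldn1 levels among classes of 50 or more cells were in epineurial cells in intact nerve and at day 21, and in MES_EPI-diff cells at day 7.

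**Figure D1:**
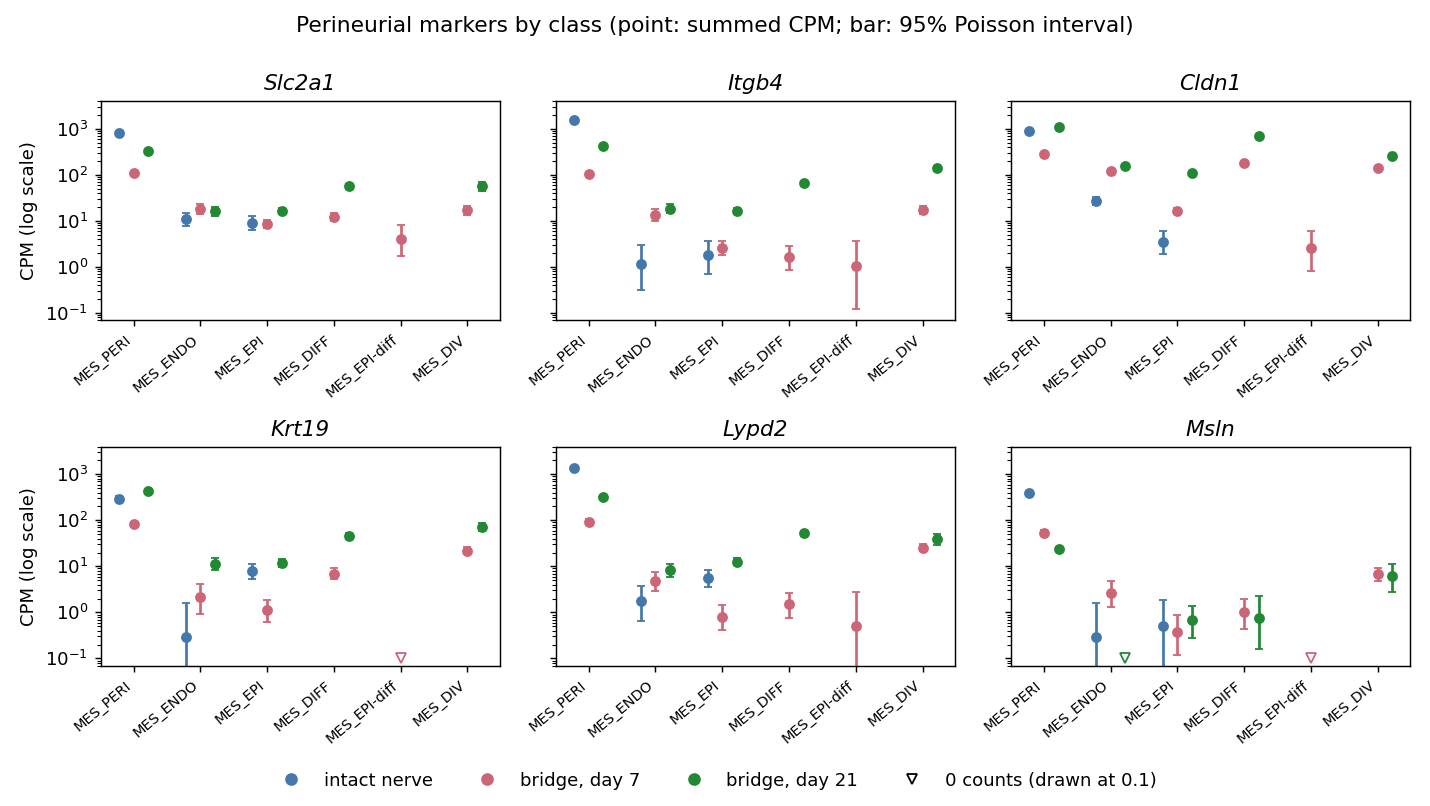
Summed level of the 6 perineurial markers in each annotated class of 50 or more cells (y axis, CPM, log scale; bars, 95% Poisson intervals; colours, the 3 libraries). Perineurial cells are the highest class for each marker in each library, from 393 CPM of Msln in intact nerve to 23.8 CPM at day 21, and the gap to MES_DIFF is smallest for Cldn1.

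Shares of cells with a marker UMI were compared after each cell was thinned to 2000 UMIs, since day 7 cells were deeper. Slc2a1 was then found in 69.8% of intact perineurial cells, 17.8% at day 7 and 40.3% at day 21; unthinned, these shares were 86.2%, 49.8% and 68.7%. In epineurial cells, taken as a class that should lack these markers, the thinned Slc2a1 share was 1.11%, 1.18% and 1.85%, with median depths of 6937, 19884 and 9666 UMIs before thinning. The share for Itgb4 was 79.3%, 13.3% and 49.7% in perineurial cells, against 0.556%, 0.740% and 1.95% in epineurial cells. Cldn1 was found in 65.5%, 36.5% and 83.9% of perineurial cells and in 0.926%, 3.25% and 14.9% of epineurial cells.

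All 6 markers together were rare in single cells: 8 intact, 1 day 7 and 9 day 21 perineurial cells held them. At least 3 of the 6 markers were found in 92 of 116 intact perineurial cells (79.3%, 70.8 to 86.3), in 21 of 241 at day 7 (8.71%, 5.47 to 13.0) and in 1087 of 2069 at day 21 (52.5%, 50.4 to 54.7), all after thinning. Without thinning the shares were 89.7%, 48.1% and 81.5%. No marker was found in 12, 98 and 70 thinned perineurial cells. In intact nerve none of 663 endoneurial and 540 epineurial cells reached 3 markers. At day 21 the thinned share was 0.616% in endoneurial, 0.682% in epineurial, 6.72% in MES_DIFF and 10.1% in MES_DIV cells. Without thinning these day 21 shares were 3.49%, 4.67%, 31.0% and 27.7%, and MES_DIV cells at day 7 were at 18.0%. In the bridge 3 markers were therefore not confined to the perineurial class. The day 7 perineurial class was the least marked of the 3 libraries, cell by cell.

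**Figure D2:**
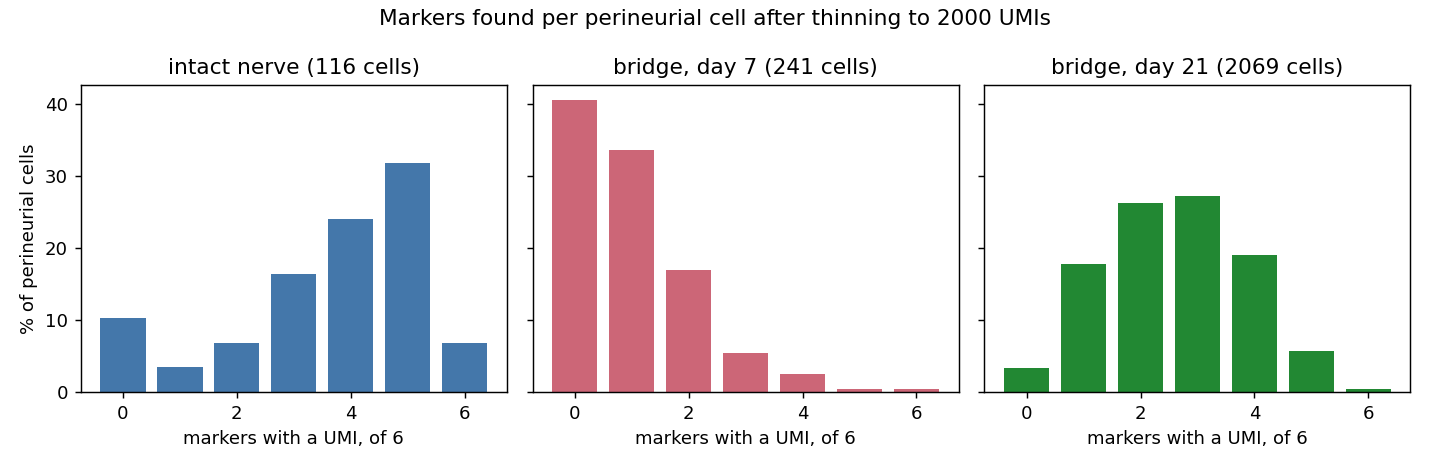
Share of perineurial cells (y axis, %) by the number of the 6 markers with a UMI after thinning to 2000 UMIs (x axis), one panel for each library. Day 7 cells pile up at 0 and 1 markers, with 98 of 241 cells at 0, whereas 92 of 116 intact cells have 3 or more.

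The class made up 8.64% of annotated cells in intact nerve, with an interval from 7.19% to 10.3%. Its share was 13.5% at day 7, between 11.98% and 15.2%, and 50.3% at day 21, between 48.8% and 51.9%. Its share of annotated UMIs was 8.66%, 10.4% and 39.7%. Of every barcode in a matrix, annotated or not, it was 5.26%, 4.94% and 27.1%, so the order of intact nerve and day 7 depends on the denominator and day 21 was highest in each. Dissociation, the sort and the authors' cell filter all set such shares, and their part was not tested.

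Over the whole transcriptome, intact perineurial cells stood furthest from their neighbours. Among 9072 genes measured in intact nerve, 1536 (16.9%) were more than 2-fold higher and 1047 (11.5%) more than 2-fold lower in perineurial than in other annotated cells. At day 7 there were 447 (5.33%) higher and 625 (7.45%) lower of 8393 genes, and at day 21 there were 579 (6.63%) higher and 739 (8.46%) lower of 8735. The median log2 ratio over all measured genes was 0.23, 0.07 and 0.12. With each cell thinned to 2000 UMIs the day 7 count of higher genes was 889, and with a floor of 50 CPM in place of 10 the higher counts were 601, 168 and 273.

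The nearest class among those compared differed between libraries. MES_DIFF, with 16 cells in intact nerve, was not compared there. In intact nerve, 31.1% of genes with 50 CPM or more were over 2-fold apart between perineurial and endoneurial cells and 33.3% between perineurial and epineurial cells, with Pearson r across genes of 0.49 and 0.43 on log2 CPM. At day 7 endoneurial cells were nearest, with 7.36% of genes over 2-fold apart and r = 0.91, and MES_DIFF cells followed at 12.2% and r = 0.85. At day 21 MES_DIFF cells were nearest, at 9.97% and r = 0.87, while endoneurial cells were at 19.3% and r = 0.73. Epineurial cells were at 19.0% and 23.5% in the bridge. These r values are descriptions across genes, which are not independent, within 1 library.

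**Figure D3:**
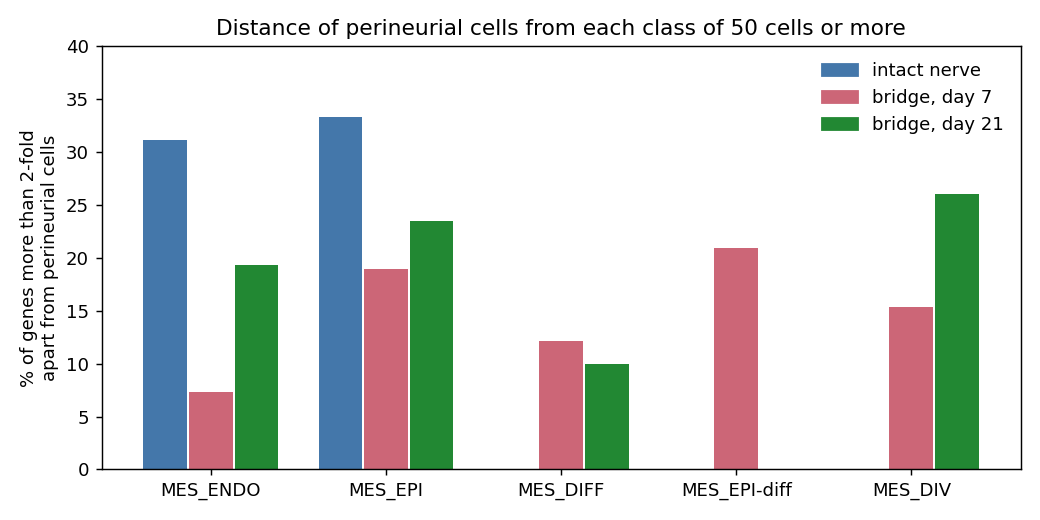
Percent of genes more than 2-fold apart between perineurial cells and each class of 50 or more cells (y axis) by class (x axis) and library (colours). The shortest bars are endoneurial cells at day 7, 7.36%, and MES_DIFF cells at day 21, 9.97%; the intact bars stand at 31.1% and 33.3%.

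A core set of genes was shared by the perineurial class of all 3 libraries. Of 7737 genes measured in each, 231 (2.99%) were more than 2-fold higher in perineurial than in other cells in all 3 libraries and 287 (3.71%) more than 2-fold lower. Against every other class of 50 or more cells, 1184 of 8142 genes were over 2-fold higher in intact nerve (14.5%), 111 of 7804 at day 7 (1.42%) and 180 of 8143 at day 21 (2.21%), and 60 of 6869 (0.873%) were so in all 3. Those 60 include 5 of the 6 markers, without Cldn1. In intact nerve only endoneurial and epineurial cells reached 50, so fewer classes had to be exceeded there and the counts are not alike. Against those classes alone, 216 genes at day 7 and 518 at day 21 were over 2-fold higher than in both.

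Sfrp5, a secreted antagonist of Wnt signalling (mm10 chr19:42197971-42202252, minus strand), was among the clearest of the core genes. It stood at 5490 CPM in intact perineurial cells against 4.97 CPM in other cells, at 300.1 CPM against 19.99 CPM at day 7, and at 796 CPM against 52.5 CPM at day 21. The ratios were 1105 (803 to 1563), 15.0 (13.6 to 16.6) and 15.2 (14.2 to 16.1), so the class was highest in intact nerve and both bridge ratios lay within each other's intervals. Ntng1, which encodes the axon guidance protein netrin-G1, was at 829 CPM against 1.05, 66.9 against 4.53 and 124 against 11.5 CPM. Gsta4, a glutathione transferase gene, was at 440 against 20.1, 101 against 7.03 and 175 against 17.2 CPM.

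Cdh5, the cadherin otherwise best known from endothelium, belonged to the same core. It was at 352 CPM in intact perineurial cells against 1.70 CPM in other cells, at 193 against 30.8 CPM at day 7 and at 267 against 49.4 CPM at day 21. The endothelial marker list, which does not hold Cdh5, summed to 5.52 CPM in intact perineurial cells, with 7 of its 8 genes at 0 (Pecam1, Cldn5, Kdr, Flt1, Egfl7, Tie1 and Esam). It summed to 50.7 CPM at day 7 and 18.2 CPM at day 21, where Emcn alone, at 38.4 and 12.6 CPM, gave most of it. The other cells of those libraries summed to 8.89, 37.7 and 25.5 CPM.

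Other core genes were Mpzl2, a cell adhesion molecule, at 247, 43.2 and 65.2 CPM in perineurial cells against 1.44, 1.73 and 2.56 CPM in others, and Perp, a desmosome-associated membrane protein, at 254, 21.1 and 55.3 CPM against 1.70, 1.20 and 3.45 CPM. Cxadr, the junctional receptor for coxsackievirus and adenovirus, was at 192, 202 and 47.9 CPM against 0.916, 19.7 and 2.22 CPM. Its level did not drop at day 7, unlike that of Mpzl2 and Perp. Dleu7, whose role is less clear, was at 148, 52.0 and 79.6 CPM against 3.01, 6.97 and 6.204 CPM.

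**Figure D4:**
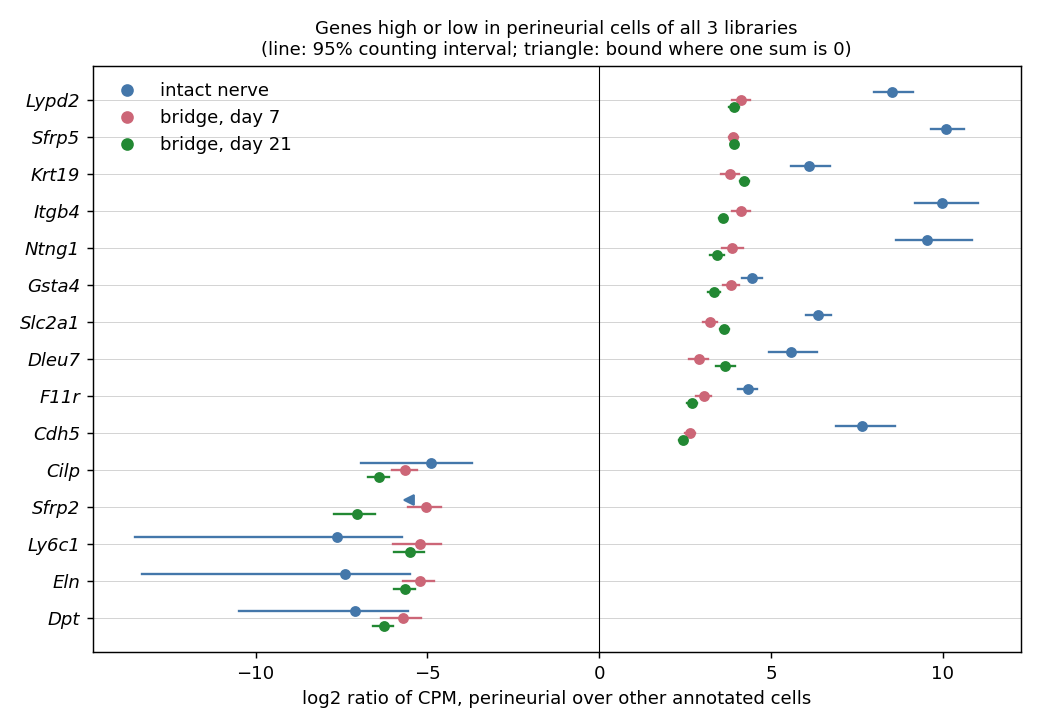
Log2 ratio of perineurial to other annotated cells (x axis) for the 10 genes with the highest and the 5 with the lowest shared ratios (y axis); lines are 95% counting intervals and a triangle marks a bound where perineurial cells had 0 UMIs. Among the 10 highest genes intact points lie furthest right, as for Sfrp5 at a ratio of 1105, where both bridge points stand near a ratio of 15.

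The 5 lowest shared ratios were those of Dpt, Eln, Cilp, Ly6c1 and Sfrp2. Dpt, which encodes dermatopontin, was at 2.76 CPM in intact perineurial cells (2 UMIs) against 474 CPM in other cells, 172 times lower (47.6 to 1421). It was at 6.93 against 371 CPM at day 7 and 7.25 against 564 CPM at day 21. Eln, the elastin gene, was at 1.38 CPM (1 UMI) against 349, 11.7 against 444 and 6.95 against 350 CPM. Cilp, a cartilage matrix protein, was at 5.52 against 183, 16.8 against 844 and 6.28 against 534 CPM, and the epineurial marker Ly6c1 at 1.38 against 407, 5.07 against 194 and 3.44 against 159 CPM. Sfrp2, a relative of Sfrp5, had no UMI in intact perineurial cells, at least 46.2-fold lower than its 191 CPM in other cells by a floor of 3 counts, and was at 10.1 against 338 and 1.87 against 251 CPM in the bridge. Sfrp5 and Sfrp2 therefore lay on opposite sides in each library.

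Tight junctions, which close the space between cells, were the first of the gene groups. The list holds 27 genes, among them the marker Cldn1, whose high level was built in. In intact nerve 10 of its 14 measured members were more than 2-fold higher in perineurial cells and 3 lower, with a median log2 ratio of 3.34. At day 7 it was 7 higher and 0 lower of 9, median 1.70, and at day 21 8 higher and 2 lower of 12, median 1.68. The day 7 median was the log2 ratio of Cldn1 itself. Of all measured genes 16.9%, 5.33% and 6.63% were higher and 11.5%, 7.45% and 8.46% lower. These shares are the background for the other lists too, and list counts describe the class without testing it.

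Of the tight junction genes, those higher in all 3 libraries included the claudin Cldn1, the scaffold genes Tjp1, Cgnl1 and Magi1, the adhesion molecule F11r, and Ildr2, a gene of the angulin family. These calls are against all other annotated cells pooled. Over 2-fold above every other class of 50 or more cells were 10 tight junction genes in intact nerve, 2 at day 7 and 3 at day 21. Of all genes so compared 14.5%, 1.42% and 2.21% were. The intact counts are against endoneurial and epineurial cells only, the bridge counts against more classes. F11r was at 456, 84.8 and 138 CPM in perineurial cells against 22.8, 10.3 and 21.3 CPM in others. Tjp1, encoding ZO-1, was at 510, 131 and 326 CPM against 54.4, 52.1 and 96.7 CPM. Ocln, encoding occludin, was at 49.6, 9.60 and 70.3 CPM against 0.131, 0.771 and 5.32 CPM; its day 7 level fell short of the 10 CPM needed to be counted. Cldn10 went the other way, at 1.38, 1.60 and 2.24 CPM against 35.4, 8.27 and 11.7 CPM. Cldn5, the endothelial claudin, had 0, 2 and 6 UMIs in the class.

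Adherens junction and desmosome genes followed, with 10 of 14 higher and 0 lower in intact nerve (median 2.07), 5 higher and 1 lower of 13 at day 7 (0.68), and 9 higher and 1 lower of 14 at day 21 (1.14). Cdh5, Jup, Nectin2, Perp and Pkp4 were higher in all 3. Jup, encoding plakoglobin, which links cadherins to the cytoskeleton, was at 248, 80.5 and 122 CPM against 17.8, 28.9 and 19.7 CPM. The desmosome core genes Dsp and Dsg2 had no UMI in perineurial cells of any library. Cdh1, the epithelial cadherin, passed the 10 CPM floor in intact nerve alone, at 15.2 CPM (11 UMIs) with 0 UMIs in other cells.

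Hemidesmosome and keratin genes, among them the markers Itgb4 and Krt19, had a list median of 6.11 in intact nerve with 7 of 7 measured members over 2-fold higher. At day 7 it was 2.41 with 5 of 7 and at day 21 2.09 with 5 of 6. These counts and medians include both markers, whose high level was built in. The intact median was the log2 ratio of Krt19 itself. Itga6, the partner of Itgb4 in the laminin-binding integrin of hemidesmosomes, was at 321 CPM against 0.523 in intact nerve, 125 against 23.5 at day 7 and 269 against 40.8 CPM at day 21. Cd151, a tetraspanin bound to that integrin, was at 342, 74.6 and 159 CPM against 70.5, 35.3 and 58.1 CPM. Among the keratins, Krt15 had 0 UMIs in intact cells, 53 at day 7 and 75 at day 21, whereas Krt5 had none and Krt14 1 in the 3 libraries together.

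Gap junction genes were split: 3 of 4 measured members were higher and 0 lower in intact nerve (median 1.62), and 2 of 5 higher and 1 lower at day 7 (-0.21) and at day 21 (-0.15). Gjb2 and Gjb5 were over 2-fold higher in each library and the widely expressed connexin Gja1 in intact nerve alone. Gjb2, encoding connexin 26, was at 12.4 CPM in intact perineurial cells (9 UMIs, 0 in other cells), 178 CPM at day 7 against 25.6 and 72.2 CPM at day 21 against 4.09. The member lower in the bridge was Panx1, a pannexin gene, at 13.3 against 28.5 CPM at day 7 and 9.05 against 20.04 CPM at day 21. Gjb2 was highest at day 7, when 5 of the 6 markers were lowest. Gja1 was at 316, 83.2 and 105 CPM in perineurial and 98.6, 96.2 and 117 CPM in other cells.

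Barrier transporters were more often higher than lower in the class in each library. The list holds the marker Slc2a1, whose high level was built in. Of the measured members, 14 of 21 were more than 2-fold higher and 3 lower in intact nerve (median 2.23), 8 of 20 higher and 2 lower at day 7 (0.64), and 11 of 20 higher and 2 lower at day 21 (1.32). Abcb1a, Slc12a2, Slc16a1, Slc2a1, Slc6a13 and Slco2a1 were among those higher in all 3. Slc16a1, the lactate carrier MCT1, was at 763, 157 and 338 CPM against 12.8, 46.7 and 82.0 CPM. Slc6a13, a carrier of GABA and taurine, was at 146, 24.8 and 121 CPM against 1.05, 2.34 and 11.1 CPM. Abcb1a, the drug efflux pump P-glycoprotein, was at 217, 21.3 and 24.7 CPM against 10.9, 3.49 and 3.50 CPM, so its day 21 level stayed near that of day 7, while Slc6a13 came near its intact level. Kcnj13, a potassium channel, was at 150.3, 3.47 and 34.8 CPM against 0.392, 0.185 and 0.985 CPM. Slc1a3, the glutamate transporter GLAST, was lower in all 3, at 8.27, 6.13 and 3.96 CPM against 61.6, 14.0 and 25.8 CPM.

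Genes of caveolae, which are pits of the cell membrane, followed the same course against all other annotated cells pooled. Of 8 measured genes 5, 3 and 5 were over 2-fold higher and 0 lower, with medians of 1.35, 0.51 and 1.16. Over 2-fold above every other class compared singly were 4 list members in intact nerve, 0 at day 7 and 3 at day 21. In intact nerve those classes were endoneurial and epineurial cells only. At day 7 the list summed to 938 CPM in perineurial, 915 CPM in MES_DIV and 887 CPM in epineurial cells, so it hardly set the class apart from those cells. At day 21 the sum was 3605 CPM, against 2023 CPM in MES_DIFF cells. Cav1, encoding caveolin-1, was at 1176 CPM against 131 in intact nerve, 142 against 32.4 at day 7 and 1280 against 195 CPM at day 21. Cav2 and Cavin2 were also higher in each library, Cavin2 at 472, 38.9 and 272 CPM against 12.4, 13.5 and 38.7 CPM.

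Basement membrane genes were split. In intact nerve 9 of 23 were higher and 7 lower (median 0.74), at day 7 2 higher and 0 lower of 17 (0.32), and at day 21 5 higher and 3 lower of 19 (0.33). Lamb2, the laminin beta-2 chain, was higher in all 3, at 798, 200 and 427 CPM against 331, 96.8 and 202 CPM. Lama5, a chain of epithelial-type laminins, was at 41.4, 3.47 and 4.94 CPM against 0.523, 0.956 and 0.788 CPM. Npnt, nephronectin, was at 91.0, 5.598 and 12.3 CPM against 0.262, 0.648 and 1.28 CPM, and Col4a3 at 73.1, 2.93 and 6.43 CPM against 3.40, 0.154 and 0.788 CPM. For these 3 genes the intact level was the highest of the 3 libraries. Lama2, the chain of muscle and Schwann cell laminin, lay lower in intact nerve and at day 21, at 66.2 against 370 and 131 against 282 CPM.

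Fibrillar and interstitial matrix genes were low in the class, with 13 of 24 lower and 4 higher in intact nerve (median -1.26), 19 of 25 lower and 0 higher at day 7 (-1.53), and 18 of 25 lower and 0 higher at day 21 (-1.29). The 10 lower in all 3 were Col14a1, Col1a1, Col1a2, Col3a1, Col5a1, Col5a2, Col6a1, Col6a2, Eln and Fbn1. Lum, the collagen-binding proteoglycan lumican, was at 294 against 3065, 889 against 1136 and 362 against 2296 CPM, so it was close to other cells at day 7. Tnc, tenascin-C, the matrix protein of wounds, was at 23.7 CPM at day 7 against 828 CPM in other cells.

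**Figure D5:**
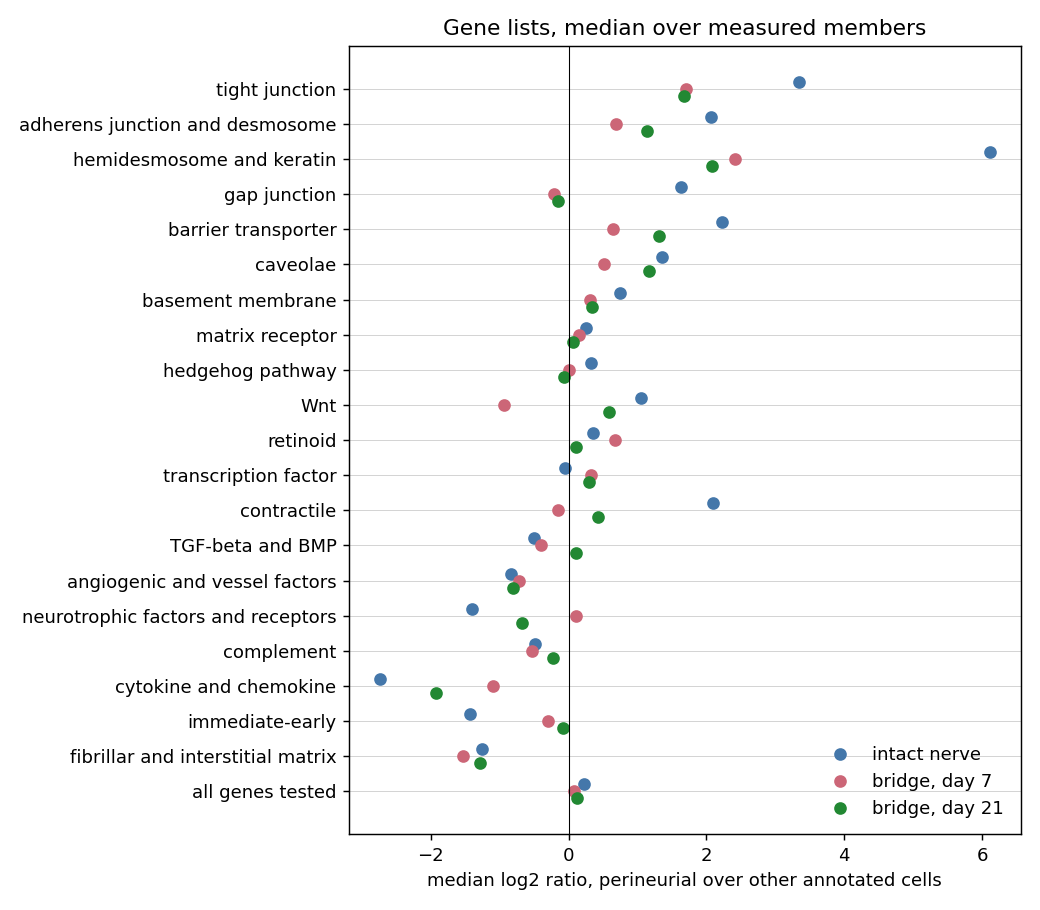
Median log2 ratio of perineurial to other annotated cells (x axis) over the measured members of each gene list (y axis), by library (colours), with all measured genes in the last row. Tight junction, adherens junction, hemidesmosome, transporter and caveolae lists lie right of 0 in each library, up to 6.11 for hemidesmosome genes in intact nerve. The tight junction, hemidesmosome and transporter lists hold perineurial markers, whose high level was built in. Gap junction genes lie left of 0 in both bridge libraries, at -0.21 and -0.15, and matrix and cytokine lists on the left.

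The hedgehog receptor Ptch1, itself a target that the pathway turns on, was high in the class in each library. It was at 927 CPM in intact perineurial cells against 137 in others, 542 against 114 at day 7 and 740 against 154 CPM at day 21, which is 6.79, 4.74 and 4.80 times higher. Gli1, another target, was at 154, 76.5 and 114 CPM against 32.8, 38.4 and 52.3 CPM and passed 2-fold in intact nerve and at day 21. The coreceptor genes Gas1 and Cdon were lower in all 3, Gas1 at 74.5, 12.8 and 38.4 CPM against 621, 261 and 413 CPM. The antagonist gene Hhip was at 3.96 CPM against 81.0 CPM at day 21. The Schwann cell ligand Dhh had 0, 4 and 18 UMIs in perineurial cells. As a list, 2, 1 and 2 of 13, 13 and 14 measured hedgehog genes were higher and 3, 2 and 3 lower, with medians of 0.33, 0.01 and -0.07, so the list as a whole did not lean to the class.

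Among Wnt genes, 6 were higher in all 3 libraries (Fzd2, Fzd7, Lrp4, Sfrp5, Wnt10a and Wnt6) and Dkk2, Sfrp2 and Sfrp4 lower. Counts were 11 higher and 7 lower of 22 in intact nerve, 6 and 8 of 18 at day 7, and 6 and 4 of 19 at day 21, with medians of 1.05, -0.95 and 0.58. Wnt6, a ligand gene, was at 470 CPM against 3.79 in intact nerve, 86.9 against 12.1 at day 7 and 375 against 69.5 CPM at day 21. At day 21 MES_DIFF and MES_DIV cells held 195 and 200 CPM of Wnt6, and MES_DIFF cells 19.9 CPM of Wnt10a. Wnt10a was at 55.2 CPM with no UMI in other intact cells, at least 141-fold higher by the floor of 3 counts, and at 12 and 35.7 CPM against 0.833 and 5.42 CPM. Sfrp4 was at 6.89 against 1211, 116 against 496 and 21.5 against 863 CPM, and the Wnt target Axin2 at 9.65, 3.20 and 10.3 CPM in perineurial and 10.1, 2.90 and 6.45 CPM in other cells.

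Among the transcription factors, the forkhead genes Foxc1, Foxc2, Foxd1, Foxd2 and Foxp2 were over 2-fold higher in perineurial cells in all 3 libraries, as were Klf5, Lmo4, Lmo7 and Nr2f2, and Ebf3, Klf4, Osr1 and Prrx1 were among those lower. Counts were 12 higher and 15 lower of 42 in intact nerve, 15 and 8 of 44 at day 7, and 11 and 10 of 44 at day 21, with medians of -0.06, 0.33 and 0.30. Over 2-fold above every other class of 50 or more cells were 10, 2 and 2 list members, the first against endoneurial and epineurial cells only. Foxd1 was at 273, 287 and 99.7 CPM in perineurial and 92.99, 48.8 and 34.8 CPM in other cells, next highest in endoneurial cells, at 138, 183 and 90.6 CPM; at day 21 those 2 classes nearly met. Klf5, an epithelial and smooth muscle factor, was at 564, 240 and 680 CPM against 27.9, 49.5 and 153 CPM, with MES_DIFF at 422 CPM at day 21. Lmo7, an actin-binding junction protein that also acts in the nucleus, was at 186, 16.8 and 114 CPM against 4.32, 2.41 and 13.7 CPM. Osr1, highest in epineurial cells of each library, had 0, 3 and 88 UMIs in the class and was at 97.0, 28.4 and 33.5 CPM in other cells.

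Retinoid genes included a pair that was high in each library. Crabp2, which carries retinoic acid to the nucleus, was at 106, 376 and 509 CPM against 2.49, 94.5 and 68.0 CPM, highest in the bridge. Stra6, the retinol uptake receptor, was at 178, 158 and 116 CPM against 2.62, 51.2 and 12.2 CPM; endoneurial cells at day 7, at 176 CPM, were above the perineurial class. Aldh1a3, which makes retinoic acid, was at 55.2, 602 and 43.1 CPM in perineurial cells and 23.8, 249 and 30.0 CPM in others, so it peaked at day 7, when endoneurial cells held 565 CPM. Rbp4, the retinol carrier of blood, was at 186 CPM in intact cells against 147 CPM, a log2 ratio that turned to -0.13 with cells weighted alike and -0.18 with cells thinned, and at 3.47 against 60.4 and 2.47 against 56.1 CPM in the bridge. The list had 4 higher and 2 lower of 15 genes in intact nerve, 4 and 1 of 11 at day 7, and 2 and 3 of 14 at day 21.

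Many cytokine, complement and growth factor genes were low in the class. Of the cytokine and chemokine genes 16 of 20 were over 2-fold lower in intact nerve, 10 of 19 at day 7 and 12 of 18 at day 21, with medians of -2.74, -1.09 and -1.92. Cxcl10, an interferon-induced chemokine, was at 0, 9.86 and 7.03 CPM against 58.5, 88.5 and 130.4 CPM. Tnfsf8, the CD30 ligand gene, was higher in each library, at 27.6 CPM (20 UMIs) against 0.131, 21.1 against 8.27 and 101 against 20.1 CPM, but its day 7 log2 ratio turned to -0.345 with cells thinned to 2000 UMIs. C3, the central complement component, was at 2.76, 43.7 and 7.33 CPM against 742, 127 and 159 CPM. Cxcl12 was at 20.7, 17.3 and 14.5 CPM against 334, 104 and 127 CPM, and Igf1 at 45.5, 666 and 112 CPM against 496, 1369 and 1508 CPM.

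A few receptor genes were high. Itga7, a laminin receptor chain, was at 215, 16.0 and 68.9 CPM against 1.70, 4.78 and 8.52 CPM, and Bcam, a receptor for laminin alpha-5, at 472, 44.5 and 76.6 CPM against 3.92, 5.89 and 7.29 CPM. Ntrk3, the receptor for neurotrophin-3, was at 44.1, 15.7 and 63.0 CPM against 11.6, 2.07 and 8.32 CPM, while Ntrk2 was at 11.03, 36.5 and 9.94 CPM against 193, 40.8 and 66.6 CPM. Erbb2 was at 24.8, 19.7 and 29.7 CPM against 8.89, 8.55 and 13.3 CPM.

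Contractile genes were high in the intact class. In intact nerve 14 of 17 measured genes were over 2-fold higher in perineurial cells, at day 7 0 of 16, and at day 21 2 of 16, with medians of 2.10, -0.15 and 0.43. Against endoneurial and epineurial cells alone the day 7 median was 0.69 and the day 7 log2 ratio of Tagln 0.75, where it was -0.77 against all other cells. Tagln, an actin-binding protein of smooth muscle, was at 1405 CPM against 52.1 in intact nerve, 150.1 against 256 at day 7 and 126 against 40.4 CPM at day 21. Tpm1, tropomyosin 1, was at 837 against 117, 464 against 408 and 316 against 190 CPM. Acta2, smooth muscle actin, was at 543 CPM against 58.2 CPM in intact nerve. It was at 80.0 against 200 CPM at day 7 and 3.96 against 14.9 CPM at day 21. Against endoneurial and epineurial cells alone the day 7 ratio for Acta2 turned to log2 1.35.

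Acta2 was concentrated in few intact cells. Of its 394 UMIs, 310 (78.7%) lay in the 12 richest of the 116 perineurial cells, and none of those 12 lacked all 6 perineurial markers. The 12 cells without a marker held 3 Acta2 UMIs. Without the 12 richest cells Acta2 was at 134 CPM, a log2 ratio of 1.21 in place of 3.22, Tagln was at 834 CPM, and 13 contractile genes were over 2-fold higher. Markers of vascular smooth muscle summed to 1954 CPM in intact perineurial cells, of which Acta2 and Tagln were nearly all; Myh11 was at 5.52 CPM against 14.0 CPM in other cells, and Cnn1, Lmod1, Des, Actg2 and Pln were at 0. Of the pericyte markers Rgs5, Kcnj8, Abcc9, Higd1b and Ndufa4l2 were at 0 and Cspg4 and Notch3 gave the sum of 880 CPM with Vtn, against 274 CPM in other cells; in the bridge the sums were 296 against 253 CPM at day 7 and 584 against 403 CPM at day 21. The part of these markers in the contractile result was not tested.

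Markers of other nerve cell types were then summed. The 11 epineurial markers summed to 294, 249 and 543 CPM against 5242, 2768 and 4502 CPM in other cells, with 10, 11 and 9 measured members over 2-fold lower. The 8 endoneurial markers summed to 412, 431 and 296 CPM against 933, 310 and 430 CPM; at day 7 none was over 2-fold lower and Etv1, at 77.8 against 23.8 CPM, was higher. Schwann cell markers summed to 105, 77.3 and 257 CPM against 70.5, 105 and 336 CPM. Myeloid markers summed to 4.14, 33.9 and 14.1 CPM. The 6 dividing cell markers summed to 1.38, 46.9 and 7.48 CPM against 35.1, 365 and 199.8 CPM. Mki67 was at 0, 4.80 and 1.42 CPM in perineurial cells; against endoneurial and epineurial cells alone its ratio turned positive in the bridge, log2 0.45 and 0.29. Whether free RNA in the droplets contributed to these sums was not tested.

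Perineurial cells also varied among themselves. By variance over mean after thinning, Malat1, a nuclear non-coding RNA, led in each library, at 50.5, 45.4 and 64.7, and Igfbp6 and Apod were among the first 8 in all 3. In intact nerve Junb, Fos, Tagln, Dcn and S100a6 joined them; at day 7 the chemokine genes Ccl2 and Ccl7 did, with 70.5% and 78.8% of their UMIs in the richest 10% of cells. At day 21 Fos, Jun, Junb, Mt1 and the galectin gene Lgals7 were among the first 8, with Mt1 holding 76.7% and Lgals7 68.6% of its UMIs in the richest 10% of cells.

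Cells with many of the 6 markers differed from those with none in genes outside the marker list. In day 7 perineurial cells Sfrp5 was at 61.6 CPM in the 98 cells with 0 markers, 253 CPM in the 122 with 1 or 2 and 1767 CPM in the 21 with 3 or more, and Cav1 at 70.7, 139 and 514 CPM. Igfbp6, a secreted binding protein of insulin-like growth factors, stood at 2890, 3538 and 7877 CPM in the same order. Ptch1 was nearly level, at 533, 548 and 553 CPM. Aldh1a3 was at 602, 663 and 238 CPM, lowest in the best marked cells. In intact nerve the 12 cells with 0 markers had an endoneurial marker sum of 1073 CPM against 283 CPM in the 92 cells with 3 or more. Ccl2 was at 571 CPM (33 UMIs) against 8.37 CPM (5 UMIs). Those 12 cells held 57756 UMIs in all, with a median depth of 4404 against 5506 UMIs in the 92. At day 21 Sfrp5 was at 138, 486 and 1081 CPM and Lgals7 at 593, 589 and 321 CPM. The median depth of the 3 sets was alike at day 7, 15379, 15707 and 15453 UMIs.

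Each library also had genes at its top that the others did not rank. In intact nerve the 10 highest ratios were those of Stmn2, Pcp4, Mybph, Sfrp5, Itgb4, Cyfip2, Msln, Wnt10a, Ntng1 and Gpm6a. Stmn2, a microtubule regulator best known from neurons, was at 117 CPM with no UMI in other cells, at least 299-fold higher by the floor of 3 counts, and at 21.3 against 1.97 and 6.95 against 0.443 CPM in the bridge. Pcp4, a calmodulin-binding protein, was at 268 against 0.131, 5.07 against 0.771 and 34.9 against 2.02 CPM. Mybph, a muscle myosin-binding protein, was at 82.7 CPM with no UMI in other cells, and at 21.1 against 0.640 CPM at day 21. At day 7 the list held Msln, Lypd2, Itgb4, Sfrp5, Ntng1, Gsta4, Krt19, Cxadr, Grin2b and Slc2a1. Grin2b, a glutamate receptor subunit, was at 17.9 CPM against 32.3 CPM in intact nerve but at 81.0 against 8.48 and 96.3 against 26.6 CPM in the bridge. At day 21 Mpzl2, Krt19, Gjb2, Perp, Lypd2, Sfrp5, Kcnj2, Ocln, Dleu7 and Slc2a1 led. Kcnj2, an inward rectifier potassium channel, was at 89.6 against 0.262, 6.13 against 2.93 and 84.1 against 6.01 CPM.

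Promoters of the core genes were searched for short motifs on both strands, in the 250 bases before each RefSeq start. Of the 60 genes that exceeded every class in all 3 libraries, 42 had entries, with 56 promoters, as did 2 of the 6 markers. The GC box GGGCGG was in 60.7% of the 56, in 61.0% of 7805 promoters of measured genes and in 32.8% of all 32841 promoters. The forkhead motif (TGTTTAC or TATTTAC) was in 1.79%, 3.19% and 5.76%, the TEAD motif GGAATG in 16.1%, 10.3% and 12.6%, and the AP-1 motif (TGACTCA or TGAGTCA) in 7.14%, 3.02% and 4.46%. The GLI motif TGGGTGGTC was in none of the 56 and in 0.225% of all promoters, and TATAAA in 1.79%, 6.37% and 12.4%. The GC box share therefore lay at that of measured genes as a whole.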

How the data were processed

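The deposited files were a matrix of whole-number UMI counts for each of the 3 libraries, made by the authors with Cell Ranger 6.1.2 per the file headers, and cell metadata with the authors' classes. The submitters' processing notes also name Cell Ranger 3.0.2 and Seurat 4.0.1 and list mm10 and GRCm38 as builds, without saying what each was for. Cell filters and treatment of doublets are not given in the sources used here, and no doublet caller was run. The members and the gene lists were chosen with earlier results of these data known.

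From the counts, UMIs were summed by class and library. Log2 ratios of CPM were taken after adding 0.5 counts to each sum; folds are quotients of the CPM with nothing added. Both have exact conditional binomial intervals at 95%. A gene was measured where either sum held more than 3 counts and the higher sum reached 10 CPM, and called when more than 2-fold apart. Bounds against 0 used a floor of 3 counts per sum. Shares have Clopper-Pearson intervals. UMIs of 1 library are no replicates, so these intervals cover counting error only. Named genes were the 6 markers, the 10 highest and 5 lowest ratios by library, the 10 highest and 5 lowest shared ratios (50 CPM and 10% of cells or more), and up to 4 of each list. Other list members named were chosen after their values were seen. Only classes of 50 or more cells were compared singly, and shares of cells with a UMI were taken after thinning each cell to 2000 UMIs. Alternatives were other filters, thinning, equal weight for each cell, median-ratio scaling, and endoneurial and epineurial cells as the reference. Some list members are counted but not reported here by name. Ratio code was checked on simulated data. Python 3.11.15, numpy 2.4.6, scipy 1.17.1, pandas 2.3.3 and matplotlib 3.10.9 were used.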

Additional observations from a re-analysis of the deposited data

Results flagged for a closer look

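Acta2 stands here because its perineurial ratio pointed up in intact nerve and down in both bridge libraries. The log2 ratio to other annotated cells was 3.22 in intact nerve, -1.32 at day 7 and -1.90 at day 21. The difference between libraries was not tested, since each condition has 1 library.

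Barcodes outside the authors' classes stand here because some carried the perineurial markers. Of unclassed barcodes with 2000 or more UMIs, 19 of 452 in intact nerve, 5 of 1753 at day 7 and 67 of 2458 at day 21 held 3 or more of the 6 markers. In intact nerve 17 of those 19 had a mitochondrial share of 10% or more, with a median of 13.2%. Their vascular smooth muscle markers summed to 8491 CPM, against 1954 CPM in the annotated perineurial class of intact nerve. At day 21 the 67 had a median of 1.99% and their Schwann cell markers summed to 10460 CPM, against 257 CPM in the annotated perineurial class.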

How the results depend on the processing

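Each group has 1 library, so no comparison has a replicate check, and depth limits low genes: in intact nerve the class holds 725278 UMIs. No paired analysis was possible because each group has 1 library. Counts of genes over 2-fold apart moved most with the filter. With no floor beyond 3 counts, the higher and lower counts were 2773 and 2143 in intact nerve, 2224 and 2220 at day 7, 2071 and 2724 at day 21, and 534 and 666 in all 3 libraries. At 50 CPM they were 601 and 440, 168 and 239, 273 and 315, and 86 and 116. Thinning to 2000 UMIs gave 889 higher genes at day 7. Without the day 7 library, an alternative chosen after seeing the data, 449 genes were higher and 499 lower in both remaining libraries. Against endoneurial and epineurial classes alone, 216 genes at day 7 and 518 at day 21 exceeded both, and the marker median was 5.08 and 4.73. Of every barcode the class made up 5.26%, 4.94% and 27.1%.

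Of the ratios of named genes past 2-fold, 9 turned in sign with endoneurial and epineurial cells as the only reference: Mki67 to 0.45 and 0.29, Cdk1 to 0.64 and 0.62 and Top2a to 0.35 and 0.89 at days 7 and 21, Birc5 to 0.34 and Acta2 to 1.35 at day 7, and Rgs5 to 1.03 at day 21. That reference leaves out the MES_DIV, MES_DIFF and MES_EPI-diff cells. Tnfsf8 at day 7 turned to -0.345 with thinned cells; the cause was not tested. Median-ratio scaling turned no named ratio past 2-fold and shifted log2 ratios down by the median of genes at 50 CPM or more in both sums, 0.12, 0.07 and 0.09. Leaving out perineurial cells with no marker turned the sign of no list median but that of the hedgehog genes at day 7, which lay near 0 in both, and leaving out the 12 cells richest in Acta2 took the intact log2 ratio of Acta2 from 3.22 to 1.21 and put Tagln at 834 CPM; both alternatives were chosen after seeing the data. Beside those 9, the endoneurial and epineurial reference moved 131 of the named ratios outside their counting interval and left 181 inside. With cells thinned, 97 moved outside and 223 stayed inside.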

Other observations

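Immediate-early genes, which respond within minutes to stress and to dissociation, were low in intact perineurial cells. Of 18 measured members 13 were more than 2-fold lower in intact nerve (median -1.43), but 2 at day 7 (-0.30) and 2 at day 21 (-0.08). At day 21 1 member, Egr3, was more than 2-fold higher. Of all measured genes 11.5%, 7.45% and 8.46% were lower. Fosb was at 262 CPM in intact perineurial cells against 1495 CPM in others, at 578 against 969 CPM at day 7 and at 1019 against 1682 CPM at day 21. Jun was at 632 against 2782, 881 against 1714 and 1980 against 2611 CPM. Myc was low in each library, at 2.76, 9.06 and 8.97 CPM against 81.9, 92.1 and 118 CPM.

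Genes of the BMP and TGF-beta pathway gave 5 higher and 13 lower of 30 in intact nerve, 3 and 6 of 24 at day 7, and 4 and 3 of 24 at day 21. Bmp6, a bone morphogenetic protein, was at 70.3, 8.26 and 24.3 CPM against 7.72, 4.94 and 5.02 CPM. Angiogenic factors were lower for 11 of 22, 10 of 21 and 10 of 24 genes and higher for 5, 1 and 3 of them. Fgf1 and Pgf were among the higher genes in intact nerve and at day 21. Vegfa was at 12.4, 37.9 and 54.2 CPM in perineurial cells against 75.2, 62.5 and 115 CPM, and Angpt1 at 4.14, 4.27 and 3.36 CPM against 20.8, 21.8 and 25.2 CPM. The growth factor pleiotrophin, Ptn, was at 1.38, 171 and 53.5 CPM against 14.1, 891 and 508 CPM.

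Receptors for matrix gave 8 higher and 4 lower of 19 in intact nerve, 7 and 4 of 19 at day 7 and 6 and 4 of 20 at day 21, with medians of 0.25, 0.15 and 0.06. Bcam, Itga6, Itga7, Itga9 and the marker Itgb4 were higher in all 3, and Cd44 and Itga11 lower.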
